A study of Mus musculus with 4 samples.

Results

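The genes described here are those whose RNA responded to the iron chelator deferasirox (DFX) differently in a highly metastatic and a lowly metastatic clone of one mouse mammary cancer line. A gene was kept when its level reached 1 FPKM (fragments per gene, scaled for gene length and for the total of the library) in at least 1 library. The response of a clone is the log2 ratio of treated to untreated FPKM, each with 1 added, and the difference in response is the value in the highly metastatic clone minus the value in the lowly metastatic clone. Genes were selected on this difference, at a size of at least 1, which is a 2-fold difference between the responses. It was met by 1128 of the 12669 expressed genes among the 49585 genes of the deposited table. Because the members were chosen by these values, the values below describe them and no difference has been tested.

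RNA was sequenced from 4 cultures of 4T1, a murine triple-negative breast cancer line. Both clones, 4T1-HM and 4T1-LM, descend from single cells of that line and were picked for high and low metastatic behaviour, so each kind of behaviour rests on 1 clone. Each clone was cultured for 48 h with 50 µmol/L of DFX, giving HM_DFX and LM_DFX, or with the solvent DMSO alone, giving HM_Ctrl and LM_Ctrl. With 1 library per condition there is no replicate check, and what belongs to metastatic behaviour cannot be told apart from what belongs to the single clone or the single culture.

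Iron chelators withdraw the iron that many enzymes need. Among these enzymes are the prolyl hydroxylases that mark the hypoxia-inducible factors (HIF) for destruction, so HIF accumulates and its target genes are transcribed when iron is scarce. Type I interferon acts through transcription factors such as Stat2 and Irf9, which bind the interferon-stimulated response element in promoters of antiviral genes. Immediate early genes such as Junb and Egr1 encode short-lived transcription factors induced by growth signals and stress.

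Promoters of 4 members are shown because the interferon-stimulated and the HIF target genes made up the largest shares of members among the gene lists described below that had at least 3 members. Sequences are from RefSeq on GRCm38.p6, run from 250 bases before to 50 bases after the start, and carry in capitals every match on either strand to GAAA, any 2 bases and GAAA (the interferon-stimulated response element, for Ifit1 and Ifit3) or ACGTG (the core of the HIF element, for Egln3 and Bnip3). Ifit1 is at chr19:34640639-34640938 (+), Ifit3 at chr19:34583279-34583578 (+), Egln3 at chr12:54203825-54204124 (-) and Bnip3 at chr7:138909457-138909756 (-).
Ifit1: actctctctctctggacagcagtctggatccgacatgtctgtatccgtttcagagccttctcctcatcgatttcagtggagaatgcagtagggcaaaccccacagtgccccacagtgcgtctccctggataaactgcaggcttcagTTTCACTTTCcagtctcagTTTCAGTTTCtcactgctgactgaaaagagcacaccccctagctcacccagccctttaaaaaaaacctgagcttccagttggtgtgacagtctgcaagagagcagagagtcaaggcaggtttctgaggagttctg
Ifit3: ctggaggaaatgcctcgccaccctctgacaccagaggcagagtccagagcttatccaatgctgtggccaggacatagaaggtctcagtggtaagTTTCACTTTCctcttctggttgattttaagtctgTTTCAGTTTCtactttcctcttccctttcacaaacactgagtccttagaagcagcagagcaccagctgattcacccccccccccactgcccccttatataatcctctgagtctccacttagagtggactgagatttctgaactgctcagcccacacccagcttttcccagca
Egln3: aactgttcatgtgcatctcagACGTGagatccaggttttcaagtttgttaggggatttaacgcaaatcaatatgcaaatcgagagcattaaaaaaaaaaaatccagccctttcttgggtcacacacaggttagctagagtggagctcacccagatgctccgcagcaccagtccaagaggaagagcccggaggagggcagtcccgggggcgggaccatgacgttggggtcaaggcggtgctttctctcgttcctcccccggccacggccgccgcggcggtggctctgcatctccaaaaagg
Bnip3: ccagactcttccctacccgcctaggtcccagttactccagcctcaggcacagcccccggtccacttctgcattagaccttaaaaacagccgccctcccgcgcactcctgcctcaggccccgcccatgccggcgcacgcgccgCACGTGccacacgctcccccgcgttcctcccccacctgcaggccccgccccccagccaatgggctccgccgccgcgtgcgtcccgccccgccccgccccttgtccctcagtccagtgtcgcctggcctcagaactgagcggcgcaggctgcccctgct

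Counted to the first base of the match, Ifit1 carried the response element at -104 and -85, and Ifit3 at -156 and -122. Egln3 carried ACGTG at -229, and in Bnip3 a single CACGTG read on both strands gave matches at -108 and -107. A RefSeq promoter was matched for 548 members, 400 with a lower and 148 with a higher response in HM. The response element was present in 12 of the 21 interferon-stimulated members with a promoter (57.1%) and in 3.02% of the promoters of all 8634 expressed genes with one. ACGTG was present in 9 of 14 HIF target members (64.3%) and in 26.5% of all. The AP-1 element TGACTCA was found in 4 of 13 lysosomal members (30.8%) against 3.58% of all, and CACGTGAC, an element of the lysosomal gene network that overlaps ACGTG, in 3 of 13 (23.1%) against 4.53%. TGACTCA was in none of the 6 immediate early and AP-1 members with a promoter. Over all members with a lower response in HM the share was 25.3% for ACGTG, 5.75% for TGACTCA and 6.5% for the interferon response element. Of the other 3 motifs searched, the wide kappaB element was found in 70.5% of promoters of members with a lower response in HM and 62.8% of those with a higher one (68.7% of all), TGATGNAA of ATF4 in 3.5% and 4.05% (2.05% of all), and TTTNNCGC of E2F in 8.25% and 9.46% (9.43% of all). Matches describe letters in a window of 300 bases and are not binding sites. Shares were not computed for list genes that were not members. The shares of list members therefore cannot tell what belongs to the list from what belongs to the difference between clones.

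Depth ranged from 14363065 fragments in HM_DFX to 21883856 in LM_DFX, with a median of 404 to 690 fragments per expressed gene. The cultures carried the epithelial genes of the parental line, all 6 of which (Epcam, Cdh1, Krt7, Krt8, Krt18 and Krt19) reached at least 29.3 FPKM in some library. Their summed level was 1765 FPKM in HM_Ctrl and 563.5 in HM_DFX, against 2244 in LM_Ctrl and 1061 in LM_DFX. Of 8 leukocyte markers, 3 were at 0 in every library (among them Adgre1 and Cd3e), 7 stayed under 1 FPKM, and Ptprc did not exceed 0.0139 FPKM. The 5 endothelial markers stayed under 1 FPKM, as did 7 of 8 fibroblast markers. Of the ribosomal RNAs, against which the library preparation selected, mt-Rnr1, mt-Rnr2 and Rn18s-rs5 were highest in HM_DFX. The mitochondrial ribosomal RNA mt-Rnr1 measured 182 FPKM in HM_Ctrl and 1736 in HM_DFX, against 149 in LM_Ctrl and 454 in LM_DFX, and mt-Rnr2 measured 164 and 948 in HM against 100.5 and 191 in LM. Both were members with a higher response in HM (1.64 and 1.60), as was the nuclear Rn18s-rs5 (4.92 and 20.5 FPKM in HM against 4.74 and 6.69 in LM, a difference of 1.44). Of 8 expressed nuclear rRNA loci 5 were members, 4 of them higher in HM, and all but Rn18s-rs5 had at most 3 fragments in any library. Their part in the differences of other genes was not tested.

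Among the 12669 expressed genes, the 1128 members made up 8.9%. The response was lower in HM for 682 genes (5.38%) and higher in HM for 446 (3.52%). These directions are signed, so a lower response in HM covers genes that fell more in HM as well as genes that rose more in LM. The median difference over all expressed genes was -0.08. DFX changed 19.3% of expressed genes at least 2-fold in HM and 15.8% in LM, while the clones differed at least 2-fold for 6.8% of genes without DFX and 8.36% with it. Counting error, computed from the fragments behind each FPKM, was smaller than the difference for 926 of the 1128 members (82.1%) at the 95% level. No fragments were recovered for 1 member. By the same measure 7706 of all 12669 expressed genes (60.8%) lay beyond counting error. Members were selected for large differences, so a higher share among them follows from the selection and is no support for them. Counting error covers sampling of fragments only, not variation between cultures.

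Members were unevenly spread over kinds of genes and levels. Protein-coding genes held 720 members among 10767 expressed (6.69%), of which 526 had a lower and 194 a higher response in HM. The short RNA loci had far higher shares on very few fragments. For miRNA loci, 94 of 174 were members (54.0%) with a median of 3 fragments in the highest library, and for snoRNA loci 58 of 132 (43.9%) with a median of 5. Only 11 of these 94 miRNA loci lay beyond counting error. The libraries were made from poly(A) RNA, so a value at a miRNA locus counts fragments over its hairpin and not the mature miRNA. Processed pseudogenes gave 90 members of 638 (14.1%), and their reads can belong to the parent gene. By level, the share of members was 12.8% at 2 to 5 FPKM in the highest library and 6.54% at 10 to 50 FPKM. In all, 368 members had fewer than 50 fragments in their highest library, 139 with a lower and 229 with a higher response in HM, and without them the share with a lower response in HM was 71.5% in place of 60.5%. Sequence shared with other genes exceeded 20% of 31-base words for 218 members, 65 of them protein-coding, and their levels are less certain.

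**Figure D1:**
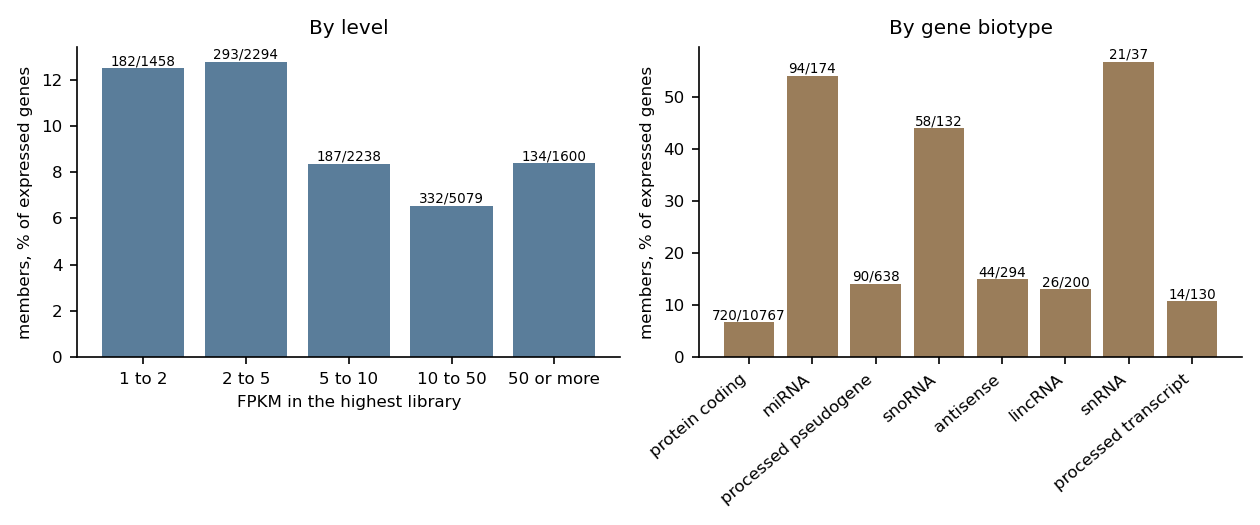
Members as a percent of expressed genes, by FPKM in the highest of the 4 libraries (left) and by annotated gene biotype (right), with members/expressed genes above each bar. Protein-coding genes held 720 of 10767, while miRNA, snoRNA and snRNA loci were members in 54.0%, 43.9% and 56.8% of cases on a few fragments each.

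The difference in response equals the gap between the clones with DFX minus the gap without DFX, each gap being the log2 ratio of HM to LM with 1 FPKM added. A large gap in the untreated libraries therefore makes a member by itself when the treated libraries are close, and a chance high or low value in HM_Ctrl or LM_Ctrl would do the same. Of the 1128 members, 299 (26.5%) had a gap of at least 2-fold only in the untreated libraries and 389 (34.5%) only in the treated libraries. Another 71 had it in both, 31 in opposite directions and 40 in one direction. The remaining 369 (32.7%) had 2-fold gaps in neither, and reached the limit through smaller gaps of opposite sign. The treated gap was the larger one for 618 members (54.8%) and the untreated gap for 510 (45.2%). Among protein-coding members with at least 10 FPKM in a library, 84 had the untreated gap alone, 133 the treated gap alone, 33 both and 159 neither. The differences of genes at low levels depend on the added 1 FPKM. With 5 FPKM added, 39 of the 102 named genes had differences smaller by over 1.5 times and 35 of the 98 members among them no longer met the limit.

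**Figure D2:**
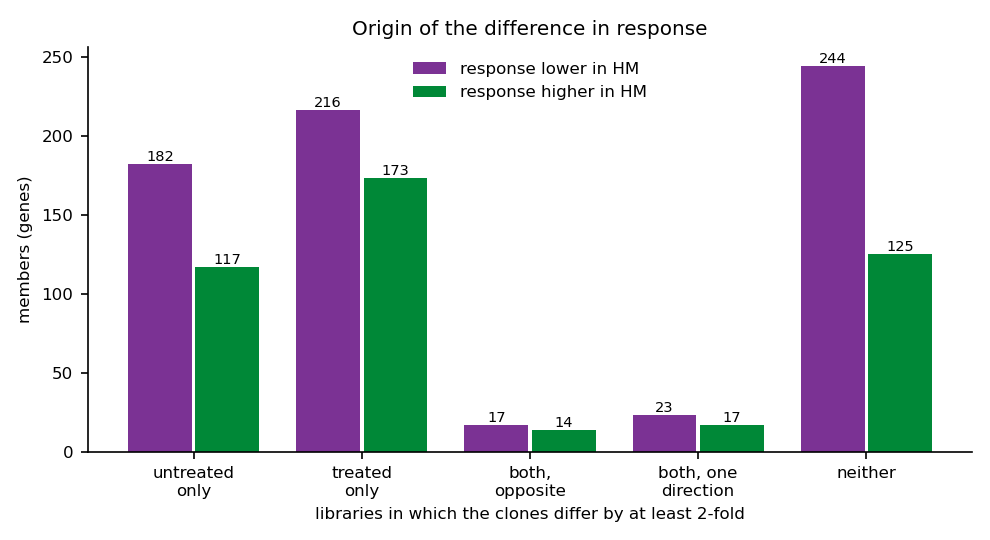
Number of members by the libraries in which the clones differed at least 2-fold, split by whether the response was lower or higher in HM. The treated libraries alone carried the gap for 216 lower and 173 higher members, and the untreated libraries alone for 182 and 117.

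**Figure D3:**
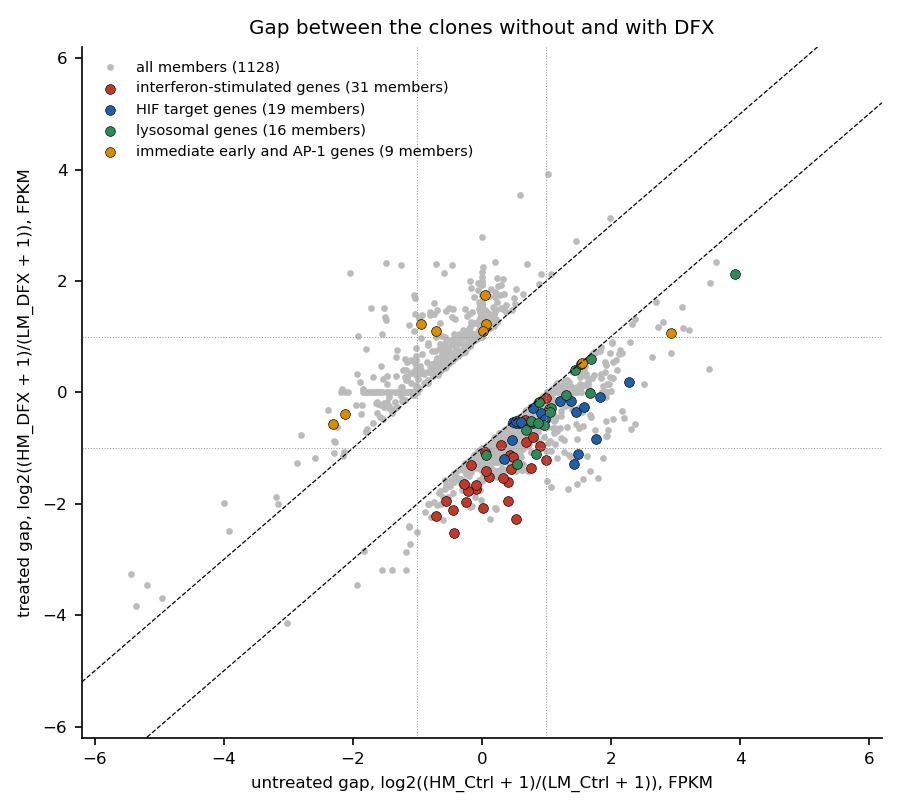
Each point is 1 member, placed by its gap between the clones without DFX (horizontal, log2) and with DFX (vertical, log2), where positive values are higher in HM. Dashed lines mark a difference in response of 1 in either direction and dotted lines mark 2-fold gaps. Coloured points are members of 4 gene lists, with interferon-stimulated genes below the centre and HIF target genes to its right.

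For genes whose clones differed only without DFX, the response brought the levels together. Of the 182 with a lower response in HM, 92 fell at least 2-fold in HM and 68 rose at least 2-fold in LM, and of the 117 with a higher response in HM, 92 fell in LM. Where 4 levels follow a gene name, they run from HM_Ctrl and HM_DFX to LM_Ctrl and LM_DFX. In bulk RNA, a change in level per cell and a change in the share of cells that carry the transcript cannot be told apart. Ddit3, which encodes the stress-response transcription factor CHOP (10:127290774-127296288), measured 79.8 FPKM in HM_Ctrl and 148 in HM_DFX, against 6.05 in LM_Ctrl and 111 in LM_DFX. Its untreated level was low in LM alone, and its difference was -3.11 (counting SE 0.11) with an untreated gap of 3.52 and a treated gap of 0.41. Eno2, an enolase of glycolysis best known from neurons, measured 10.2, 26.1, 1.26 and 41.8 FPKM, a difference of -2.97 (counting SE 0.10, and -1.87 with 5 FPKM added). Espn, which encodes the actin-bundling protein espin, had 6.92 FPKM in HM_Ctrl and 11.6 in HM_DFX, against 0.72 in LM_Ctrl and 16.4 in LM_DFX, a difference of -2.66 (-1.42 with 5 FPKM added).

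Xdh, the xanthine dehydrogenase gene of purine breakdown, moved from the other side, with 45.7 FPKM in HM_Ctrl and 13.1 in HM_DFX, against 11.0 in LM_Ctrl and 21.5 in LM_DFX. The high value was that of untreated HM, and the difference was -2.63 (counting SE 0.08). In the opposite direction stood genes that were high in untreated LM and fell there. Csf1, the macrophage colony-stimulating factor, measured 20.3 FPKM in HM_Ctrl and 15.9 in HM_DFX, against 58.1 in LM_Ctrl and 12.8 in LM_DFX, with a difference of 1.77 (counting SE 0.06). Wisp1, a secreted protein of the CCN family, measured 4.78, 12.01, 39.3 and 21.1 FPKM in that order, so that it rose in HM at least 2-fold while LM changed by -0.87. Ucn2, a urocortin peptide, had 10.1 FPKM in LM_Ctrl and between 0.66 and 1.14 FPKM in the other 3 libraries. The ribosomal protein gene Rpl30 also belonged to this group (12.04, 13.99, 40.9 and 11.4 FPKM), with 20.4% of its exon bases opposite another gene. It shared 12.7% of its 31-base words with other genes, and its pseudogene Rpl30-ps10, also a member, shared 96.9%. The split of fragments between them was not tested, and the level of Rpl30 is less certain.

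Genes whose clones differed only under DFX had untreated gaps under 2-fold by definition. The quartiles of that gap were -0.17 and 0.24 for those lower in HM, and -0.10 and 0.11 for those higher in HM. Some began near the limit, with untreated gaps of -0.97 for Irs2 and 0.99 for Ifit1. Of the 216 with a lower response in HM, 80 fell at least 2-fold in HM and 92 rose in LM, and of the 173 with a higher response in HM, 122 rose in HM and 23 fell in LM. Eya2, a transcriptional coactivator with phosphatase activity, measured 15.5 FPKM in HM_Ctrl and 1.88 in HM_DFX, against 14.2 in LM_Ctrl and 12.9 in LM_DFX. The low value was that of treated HM alone, and the difference was -2.38 (counting SE 0.14, and -1.47 with 5 FPKM added). Mpp2, a membrane scaffold protein, showed the other form, with 2.91, 2.72, 2.35 and 14.9 FPKM and a high value in treated LM alone (difference -2.32, and -1.47 with 5 FPKM added).

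Stmn4, of the stathmin family that destabilises microtubules (14:66344296-66361680), measured 0.56 FPKM in HM_Ctrl and 26.3 in HM_DFX, against 0.03 in LM_Ctrl and 1.34 in LM_DFX. It rose in both clones, by 4.13 in HM and 1.18 in LM on the log2 scale. The difference was 2.95 (counting SE 0.18, and 1.89 with 0.1 FPKM added), with 724 fragments in HM_DFX against 56 in LM_DFX. The untreated libraries held 18 fragments in HM_Ctrl and 1 in LM_Ctrl, so the size of the difference depends on the added FPKM. Irs2, the insulin receptor substrate that couples the receptor to phosphatidylinositol 3-kinase, measured 7.74, 15.4, 16.1 and 5.49 FPKM. It fell in LM by 1.40 on the log2 scale, changed by 0.91 in HM, and differed by 2.31 (counting SE 0.08). Sumo2, which encodes a ubiquitin-like modifier, gave 7.95, 31.3, 12.4 and 6.34 FPKM, but shared 21.3% of its 31-base words with other genes.

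Gaps in both states that changed sign were found for 31 members, of which 5 were protein-coding genes with at least 10 FPKM. Nptx1, a neuronal pentraxin (11:119538719-119547753), measured 53.1 FPKM in HM_Ctrl and 5.94 in HM_DFX, against 18.4 in LM_Ctrl and 20.8 in LM_DFX. It fell in HM by 2.96 on the log2 scale and changed by 0.17 in LM, which gave the largest difference among protein-coding genes with at least 10 FPKM (-3.13, counting SE 0.08). Slfn2, a schlafen gene of lymphoid and interferon biology, measured 8.83, 2.89, 2.33 and 10.5 FPKM, with untreated and treated gaps of 1.56 and -1.56. Egln3, one of the HIF prolyl hydroxylases and itself a HIF target, measured 85.9, 32.8, 29.8 and 71.7 FPKM. Both genes fell at least 2-fold in HM and rose at least 2-fold in LM.

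Gaps in both states that kept their sign were found for 40 members, 28 of them protein-coding with at least 10 FPKM. A group of these was high in LM in both states and fell under DFX in that clone. Sfn, the epithelial 14-3-3 sigma, measured 1.18 FPKM in HM_Ctrl and 1.73 in HM_DFX, against 94.1 in LM_Ctrl and 25.04 in LM_DFX. Krt14, a basal keratin, measured 2.48, 1.90, 54.3 and 10.5 FPKM, and Mmp9, the gelatinase B that degrades basement membrane collagen, measured 1.64, 0.75, 108 and 24.02 FPKM. Rgs16, a regulator of G-protein signaling, stood at 0.15 FPKM in both HM libraries against 41.0 in LM_Ctrl and 11.6 in LM_DFX. The differences were 2.19 for Sfn, 2.01 for Krt14, 1.53 for Mmp9 and 1.73 for Rgs16, and on this scale the larger response was the fall in LM. Both HM libraries were low for each of these genes, so the added 1 FPKM flattens their responses in HM. HM_Ctrl and HM_DFX held 97 and 38 fragments of Mmp9, and 6 and 5 of Rgs16. Sfn and Krt14 shared 26.9% and 28.2% of their 31-base words with other genes.

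Atp13a4, a P-type cation ATPase gene, was the reverse case. It measured 1.04 FPKM in HM_Ctrl and 19.0 in HM_DFX, against 0 in LM_Ctrl and 0.32 in LM_DFX, from 108, 1701, 0 and 44 fragments. Its difference was 2.89 (counting SE 0.10, and 1.90 with 5 FPKM added). With 0 fragments in LM_Ctrl, the response in LM is set by the added FPKM. Lgals9, the galectin-9 gene, was high in LM with and without DFX and rose there (5.34, 4.46, 13.3 and 48.6 FPKM), a difference of -2.01.

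Members without a 2-fold gap in either state numbered 369, and 244 of them had a lower response in HM, among which 88 fell at least 2-fold in HM and 65 rose in LM. Plk2, a polo-like kinase among p53 targets, measured 26.2 FPKM in HM_Ctrl and 140 in HM_DFX, against 42.3 in LM_Ctrl and 80.6 in LM_DFX, so that the order of the clones turned over (difference 1.46, counting SE 0.06). Ddx21, a nucleolar RNA helicase, measured 52.8, 109, 70.0 and 56.9 FPKM. In the other direction, Sema7a, a membrane-anchored semaphorin, fell in HM by 2.34 on the log2 scale (14.9, 2.15, 7.59 and 4.82 FPKM), and Osgin1, an oxidative stress-induced growth inhibitor, measured 32.8, 11.2, 17.6 and 21.7 FPKM.

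Counted by response, 405 members changed at least 2-fold in HM only and 329 in LM only. Another 108 changed in both clones in one direction by different amounts, 21 in both clones in opposite directions, and 265 in neither. Members with a lower response in HM combined 286 genes that fell in HM with 249 that rose in LM, and those with a higher response in HM combined 179 that rose in HM with 170 that fell in LM.

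Counts of members in a gene list are read against 8.9% of all expressed genes. Target genes of HIF were members in 19 of 29 expressed cases (65.5%, against 5.38% of all genes called lower in HM). Each had a lower response in HM. The median difference over the 29 genes was -1.15, with a median response of 0.46 in HM and 1.78 in LM. At least 2-fold rises were counted for 6 genes in HM and 22 in LM. Without DFX, 24 of the 29 were higher in HM, and with DFX 4 were. Accordingly 7 of the 19 members had the untreated gap alone, 1 the treated gap alone, 2 opposite gaps and 9 neither.

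Car9, a carbonic anhydrase that regulates pH in hypoxic cells, measured 35.6 FPKM in HM_Ctrl and 28.3 in HM_DFX, against 6.51 in LM_Ctrl and 24.8 in LM_DFX. The LM_Ctrl value was the low one, and the difference was -2.10 (counting SE 0.11). Adm, the vasodilator peptide adrenomedullin, measured 3.21, 4.77, 0.24 and 9.26 FPKM, and Ankrd37, an ankyrin repeat gene, 5.94, 7.60, 1.57 and 20.1 FPKM, with 26.4% of its exon bases opposite another gene. Ndrg1, a gene induced by hypoxia and iron depletion, rose in both clones and measured 177 FPKM in HM_Ctrl and 577 in HM_DFX, against 49.1 in LM_Ctrl and 613 in LM_DFX, and the glucose transporter gene Slc2a1 measured 107, 207, 40.3 and 231 FPKM. Bnip3, a mitophagy receptor, measured 85.3, 171, 28.0 and 205 FPKM. Both of the latter rose at least 2-fold in LM and changed by 0.95 and 0.99 in HM on the log2 scale. For these 3 genes the clones had close levels under DFX, and the untreated gap was the larger one.

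Enzymes that need iron and 2-oxoglutarate, the class to which the HIF hydroxylases belong, held 7 members of 36 expressed (all lower in HM, median difference -0.33). All but Plod1 are on the list of HIF targets too. Among them were the collagen prolyl hydroxylase genes P4ha1 (46.6, 93.0, 24.3 and 121 FPKM) and P4ha2 (9.50, 18.1, 3.53 and 20.4 FPKM). The histone demethylase gene Kdm4b measured 14.8, 22.4, 6.99 and 31.4 FPKM. Each of these genes rose at least 2-fold in LM. In HM they rose by less, by 0.98, 0.86 and 0.57 on the log2 scale. Glycolysis genes held 7 members of 19 (all lower in HM, median difference -0.74). Gapdh measured 22.9 FPKM in HM_Ctrl and 10.7 in HM_DFX, against 7.06 in LM_Ctrl and 16.8 in LM_DFX. It shared 27.2% of its sequence with other genes. The 19 genes summed to 4002 FPKM in HM_Ctrl and 5791 in LM_DFX, so the FPKM assigned to Gapdh was a small part of these sums. That does not show how much of the glycolysis transcripts came from Gapdh. Whether fragments of Gapdh went to genes of like sequence was not tested, and its level is less certain. Aldoc, an aldolase, was higher in LM in both states and rose there (3.37, 1.66, 10.4 and 23.2 FPKM), and Pfkp, a phosphofructokinase, gave 18.6, 24.9, 11.2 and 37.1 FPKM.

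Interferon-stimulated genes were members in 31 of 52 expressed cases (59.6%), each with a lower response in HM. The median response over the 52 genes was 1.71 in HM and 3.03 in LM, with at least 2-fold rises for 37 and 48 genes and no 2-fold fall in either clone. The gaps of this list lay mostly in the treated libraries. The median gap was 0.10 without DFX and -1.11 with it, and over the 31 members 0.33 and -1.42. Of these members, 23 had the treated gap alone, 7 neither and 1 the untreated gap alone. In 50 of the 52 genes the highest library was LM_DFX, and under DFX no gene of the list was higher in HM. With 5 FPKM added, 20 genes of the list were members.

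Ifit1, an RNA-binding antiviral protein, measured 5.55 FPKM in HM_Ctrl and 34.0 in HM_DFX, against 2.30 in LM_Ctrl and 80.4 in LM_DFX, a difference of -2.21 (counting SE 0.14). Its neighbour Ifit3 measured 1.13, 13.2, 0.47 and 67.6 FPKM, a difference of -2.81 (counting SE 0.20), and Ifi44 measured 0.54, 4.43, 0.16 and 20.1 FPKM. Untreated levels were low in both clones, at 33 and 13 fragments for Ifit3, and both treated levels stood above both untreated levels. Ifit3 and Ifit3b shared 61.8% and 55.2% of their sequence with other genes, so the split between them is uncertain. Factors that carry the interferon signal were members too. Stat2 measured 7.67 FPKM in HM_Ctrl and 33.4 in HM_DFX, against 4.45 in LM_Ctrl and 47.4 in LM_DFX, and Irf7 measured 1.82, 14.8, 1.06 and 39.8 FPKM.

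The other 21 interferon-stimulated genes had smaller differences. Isg15, a ubiquitin-like protein, rose in both clones (24.7, 217, 16.1 and 284 FPKM) with a difference of -0.96. Isg20 differed by -0.28 and Irgm1 by -0.48. MHC class I presentation genes gave 7 members of 28 expressed, 6 lower and 1 higher in HM, with a median difference of -0.71. The peptide transporter gene Tap1 (1.13, 4.63, 2.51 and 25.1 FPKM), also an interferon-stimulated gene, had its high value in LM_DFX, as did the non-classical class I gene H2-T23 (13.7, 17.9, 11.0 and 48.3 FPKM, 24.5% shared sequence). The member with a higher response in HM was Calr, the chaperone calreticulin, with 264 FPKM in HM_Ctrl and 406 in HM_DFX, against 239 in LM_Ctrl and 155 in LM_DFX. Leukocyte markers other than Cd68 were under 1 FPKM in these libraries. Cd68, a lysosomal membrane protein on this marker list and on the lysosome list, measured 12.9, 37.4, 12.3 and 83.1 FPKM.

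**Figure D4:**
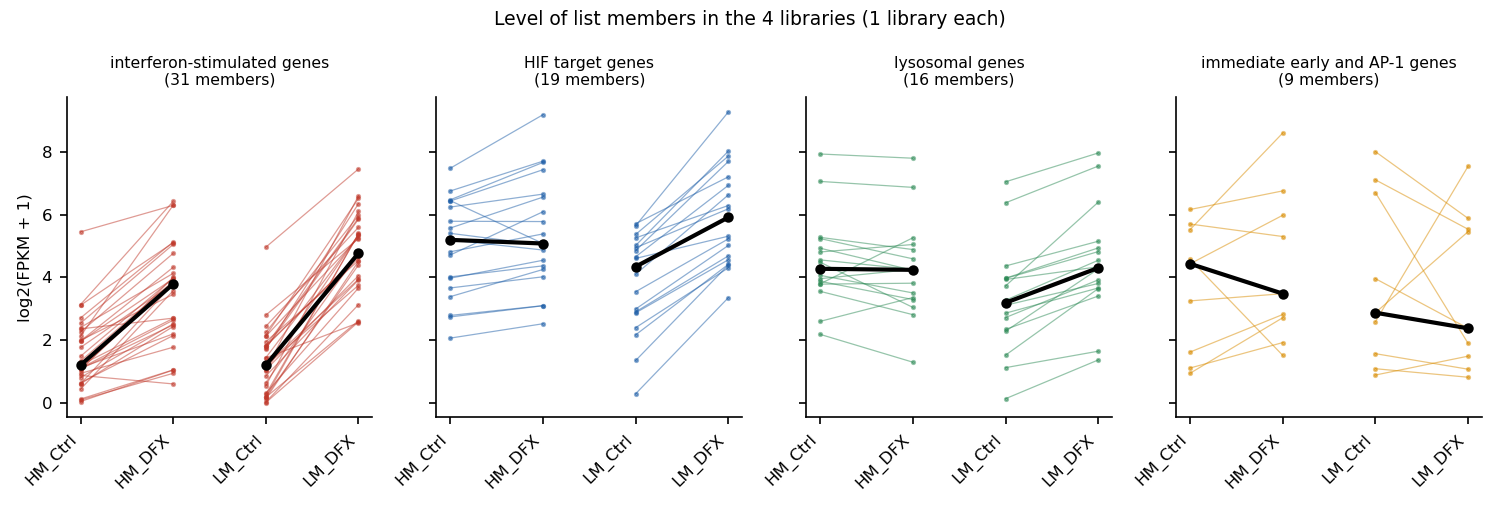
Levels of the members of 4 lists in the 4 libraries, as log2(FPKM + 1), with 1 thin line per gene and clone and the median in black. Interferon-stimulated members started slightly higher in HM_Ctrl (median untreated gap 0.33) and ended higher in LM_DFX. HIF target and lysosomal members started lower in LM_Ctrl.

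Targets of the stress factor ATF4, which is translated when protein synthesis is curbed, were members in 8 of 29 cases, all lower in HM, with a median difference of -0.38. Besides Ddit3, Atf3 rose in both clones from a higher level in HM (44.996, 385, 5.05 and 184 FPKM, difference -1.87), and Ppp1r15a, which restores translation, did likewise (20.9, 170, 3.85 and 104 FPKM). Chac1, a glutathione-degrading enzyme, fell at least 2-fold in HM and changed by 0.25 in LM (154, 55.8, 35.3 and 42.1 FPKM). Of these 8 members, 4 had the untreated gap alone.

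Lysosomal genes were members in 16 of 58 cases (27.6%), again all lower in HM. The list's median response was -0.35 in HM and 0.53 in LM, and 54 of the 58 differences were below 0. With 5 FPKM added, 9 genes of the list were members. At least 2-fold falls numbered 9 in HM and 2 in LM, and rises 2 in HM and 11 in LM. Without DFX, 51 of the 58 genes were higher in HM, and with DFX 23 were. Naglu, which removes sugars from heparan sulfate, measured 10.8 FPKM in HM_Ctrl and 6.05 in HM_DFX, against 5.62 in LM_Ctrl and 14.2 in LM_DFX (difference -1.94). Acp5, the tartrate-resistant acid phosphatase that holds iron in its active site, fell in HM (21.4, 7.27, 14.3 and 19.3 FPKM, difference -1.84). Neu1, a sialidase, rose in LM (14.6, 18.2, 3.90 and 18.3 FPKM), and Gpnmb, a glycoprotein of lysosomes and melanosomes, had low values in LM throughout (15.8, 10.4, 0.11 and 1.60 FPKM).

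Immediate early and AP-1 genes went mostly the other way. Of 23 expressed, 9 were members, 7 of them with a higher response in HM (3.52% of all genes were called in that direction), and the median difference of the list was 0.54 (5 members with 5 FPKM added). Junb, a subunit of AP-1, measured 70.6 FPKM in HM_Ctrl and 107 in HM_DFX, against 137 in LM_Ctrl and 45.3 in LM_DFX, a difference of 2.16 (counting SE 0.05) with a fall of at least 2-fold in LM. Egr1, a zinc finger factor, measured 8.55, 10.2, 14.6 and 4.22 FPKM, and Fosb 2.09, 6.08, 1.99 and 1.12 FPKM. Ctgf and Cyr61, secreted targets of the YAP coactivator, had high values in LM_Ctrl. Ctgf measured 22.9, 1.87, 103 and 2.75 FPKM, with 23.2% of its exon bases opposite another gene, and fell at least 2-fold in both clones, and Cyr61 measured 50.9, 38.5, 255 and 57.8 FPKM and fell in LM alone. Atf3 and Klf4 were the 2 members of the list with a lower response in HM.

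NF-kappaB subunits and feedback genes had 3 members of 16, all higher in HM, and 15 of the 16 differences were above 0 (median 0.58). Nfkbia, the inhibitor that holds NF-kappaB in the cytoplasm, rose in both clones (24.3, 163, 30.4 and 82.1 FPKM, difference 1.29, counting SE 0.08). Tnfaip3, a ubiquitin-editing brake on the pathway, rose in HM only (9.84, 20.96, 18.3 and 17.8 FPKM).

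**Figure D5:**
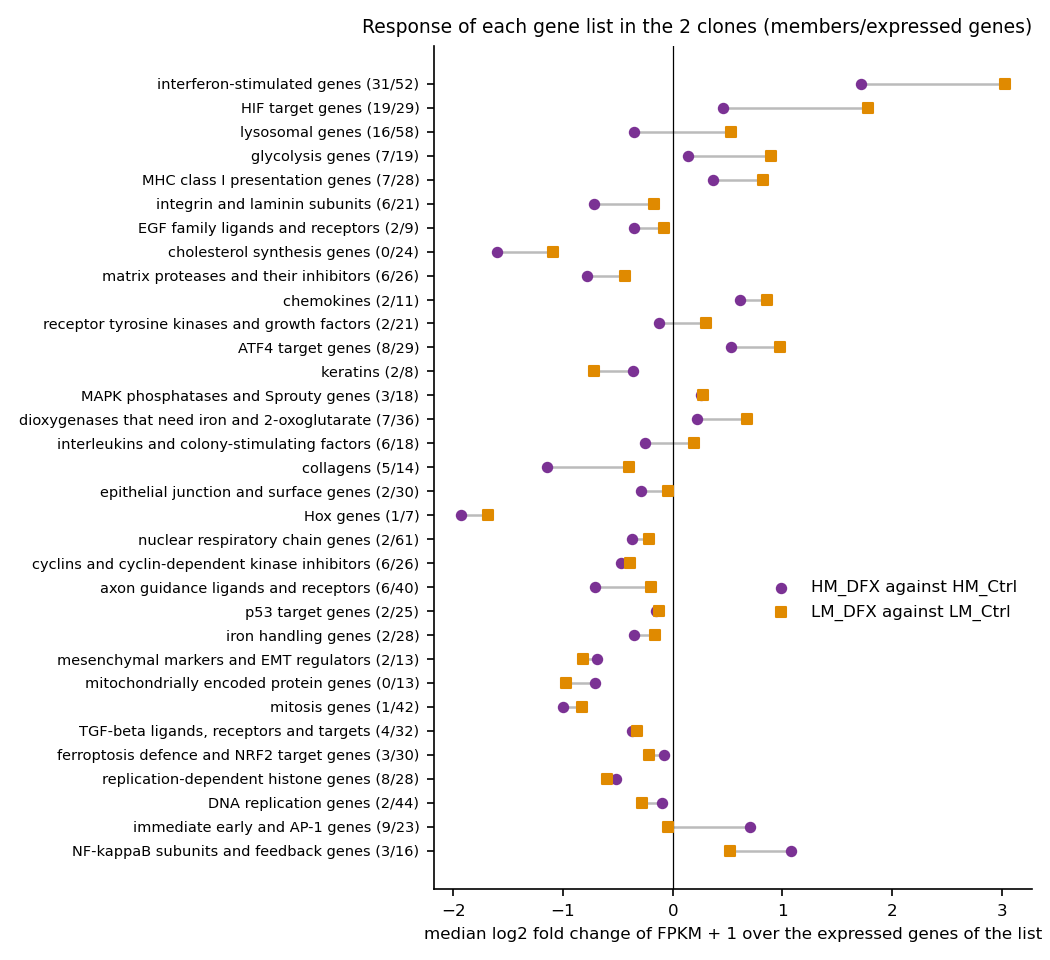
Median response to DFX of the expressed genes of each list, in HM (circles) and LM (squares), as log2 of FPKM + 1, with members/expressed genes beside each name. Interferon-stimulated genes (1.71 and 3.03) and HIF target genes (0.46 and 1.78) had the widest separation, and the squares lay left of the circles for immediate early and NF-kappaB genes.

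Genes of the cell surface and matrix were members mainly through falls in HM. Integrin and laminin subunits had 6 members of 21, all lower in HM (median difference -0.69). Lamb1, a laminin chain of basement membranes, measured 92.9 FPKM in HM_Ctrl and 28.3 in HM_DFX, against 53.7 in LM_Ctrl and 47.7 in LM_DFX, a difference of -1.51 (counting SE 0.03). Itga8, an integrin chain, measured 8.32 and 2.15 FPKM in HM and 0.09 FPKM in both LM libraries. The basement membrane collagens Col4a1 (118, 39.4, 86.2 and 65.1 FPKM) and Col4a2 (88.3, 37.9, 59.6 and 65.8 FPKM) each fell at least 2-fold in HM alone. Collagens as a list had 5 members of 14 (35.7%), 3 lower and 2 higher in HM. Matrix proteases and their inhibitors had 6 members of 26, 4 of them lower in HM, among which Plat, the tissue plasminogen activator, rose in both clones (3.06, 7.95, 2.04 and 20.2 FPKM). Axon guidance genes had 6 members of 40 (15%, against 8.9% of all expressed genes). Ntn1, the secreted guidance cue netrin-1, was near 0 in LM (0.07 and 0.05 FPKM, from 7 fragments each) and fell in HM from 12.3 to 4.31 FPKM. At such levels the added 1 FPKM sets the response in LM, so a fall there could not be seen. The same holds for Itga8, with 10 and 14 fragments in LM_Ctrl and LM_DFX.

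Secreted and signaling genes were split between the directions. Interleukins and colony-stimulating factors had 6 members of 18, of which Csf1 alone had a higher signed response in HM, through its fall in LM. Csf2, the granulocyte-macrophage factor, rose in both clones (4.78, 11.9, 1.03 and 11.7 FPKM, difference -1.48, and -0.68 with 5 FPKM added). Il33, an alarmin, was low throughout (2.57, 0.87, 0.13 and 0.79 FPKM). TGF-beta family genes had 2 members in each direction of 32 expressed (12.5%, against 8.9% of all expressed genes). Inhba, an activin subunit, rose in HM (12.3, 36.9, 16.1 and 19.4 FPKM, difference 1.25), and Ltbp3, a latent TGF-beta binding protein, fell in HM by 2.25 and changed by -0.96 in LM on the log2 scale. Of the phosphatases that switch off MAP kinases, Dusp4 (96.9, 165, 21.4 and 102 FPKM) rose in LM, and Dusp6 fell in both clones, by 2.32 in HM and 1.30 in LM on the log2 scale.

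The lists of the cell cycle differed in their share of members, read against 8.9% of all expressed genes. Cyclins and cyclin-dependent kinase inhibitors had 6 of 26 (23.1%), with Ccng2 lower in HM (23.9, 35.2, 6.9996 and 31.8 FPKM) and Ccne1, the cyclin of S-phase entry, higher in HM (4.55, 3.43, 5.52 and 1.41 FPKM). DNA replication genes had 2 of 44 (4.55%) and mitosis genes 1 of 42 (2.38%), with median differences of 0.18 and -0.06. Replication-dependent histone genes had 8 of 28 (28.6%), 6 of them higher in HM, but histone transcripts lack the poly(A) tail selected in library preparation, and Hist1h3i shared 93.2% of its sequence with other genes.

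Cholesterol synthesis genes had no member among 24 and mitochondrially encoded protein genes none among 13, and nuclear respiratory chain genes had 2 of 61. The median response of the cholesterol list was -1.60 in HM and -1.09 in LM. Iron handling genes had 2 of 28 (7.14%, against 8.9% of all expressed genes), both lower in HM. These were Lcn2, a siderophore-binding lipocalin (3.28, 0.80, 0.41 and 0.30 FPKM), and the mitochondrial iron importer Slc25a37 (55.7, 33.9, 34.7 and 46.2 FPKM). Chemokines had 2 members of 11, p53 targets 2 of 25, ferroptosis defence and NRF2 targets 3 of 30, keratins 2 of 8, epithelial junction genes 2 of 30, mesenchymal genes 2 of 13, Hox genes 1 of 7, EGF family genes 2 of 9 and receptor tyrosine kinases and growth factors 2 of 21. The shares of p53 targets (8%), ferroptosis defence and NRF2 targets (10%) and receptor tyrosine kinases and growth factors (9.52%) were near the 8.9% of all expressed genes. So were those of iron handling genes (7.14%) and epithelial junction genes (6.67%). The 37 lists, which overlap, held 166 of the 720 protein-coding members (23.1%), so most members belonged to none.

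On the autosomes and chromosome X, the share of protein-coding genes that were members ranged from 2.36% on chromosome X and 3.89% on chromosome 16 to 9.30% on chromosome 19 and 9.28% on chromosome 11. None of the 13 expressed protein-coding genes of the mitochondrial genome and of the 2 on chromosome Y was a member. There were 7 runs of 3 neighbouring expressed members, all with a lower response in HM. One held Ifit2, Ifit3 and Ifit3b (19:34550694-34613401), one the nuclear body genes Sp110, Sp140 and Sp100 (1:85576899-85709998), and one Oasl2, Oasl1 and 2210016L21Rik (5:114896936-114949783). Sp110 and Sp140 shared 48.2% and 46.8% of their 31-base words with other genes, so their levels are less certain and they may not be separate members.

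Members just inside the limit on the lower side were Efna1 (-1.0004) and Shtn1 (-1.0005), and genes just outside it Mdp1 (-0.9996) and Rsad2 (-0.9989). On the higher side Pcgf6 (1.0009) and Hyou1 (1.0055) were just inside, and Ccdc117 (0.9958) just outside. Rsad2, an antiviral enzyme of the interferon response, measured 0.99 FPKM in HM_Ctrl and 18.5 in HM_DFX, against 0.32 in LM_Ctrl and 24.8 in LM_DFX, close to the values of interferon-stimulated genes that were counted as members.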

How the data were processed

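The submitters' processing notes and the paper name FastQC, Trimmomatic, HISAT2 and featureCounts, the build mm10, and poly(A)-selected directional paired-end libraries. Tool versions and the strand setting of the counting are not given in the sources used here. The authors deposited FPKM per gene for each of the 4 libraries. The table was used as deposited, and it held no columns of other samples. The paper's edgeR calls were not repeated, because 1 library per condition gives no spread. Coordinates of 45125 of 49585 genes equal GENCODE M21, and whole fragments (within 0.02) were recovered from the FPKM of 99.9% of expressed genes and used for counting error.

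A pseudocount of 1 FPKM, a filter of 1 FPKM in any library and a 2-fold limit follow the rule of selection. Members, lists and motifs were chosen with earlier results of these data known. Named genes were protein-coding genes with at least 10 FPKM, the 4 largest differences per direction and origin class, plus up to 4 per list with at least 3 members, genes with opposite 2-fold responses, and those nearest the limit. Some genes that this rule takes are not reported here. Other list genes were named after their values were seen, as were the genes of neighbouring runs. Alternatives changed the pseudocount, filter, scaling, gene class and limit, and 2 were added after seeing the data (at least 50 fragments, and no shared sequence). The calling was tested on simulated data, with changes put only into well-expressed, longer genes of HM_DFX and with counting noise alone. Changes in genes at low levels or in untreated libraries, and variation between cultures, were not simulated. Python 3.11.15 with pandas 2.3.3 was used.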

Additional observations from a re-analysis of the deposited data

Results flagged for a closer look

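For 4 genes, the response was at least 2-fold in both clones and in opposite directions, and this difference was not tested, since each value rests on 1 library. Slfn2 fell in HM by 1.34 and rose in LM by 1.78 on the log2 scale, a difference of -3.12 from 246, 69, 61 and 381 fragments in HM_Ctrl, HM_DFX, LM_Ctrl and LM_DFX. Hist1h2bc, a histone H2B gene, rose in HM by 1.15 and fell in LM by 1.63, a difference of 2.78 from 76, 157, 71 and 21 fragments, and it shared 32.6% of its sequence with other genes. Egln3 fell in HM by 1.36 and rose in LM by 1.24, a difference of -2.60 from 3829, 1255, 1248 and 4174 fragments. Gapdh fell in HM by 1.03 and rose in LM by 1.15, a difference of -2.18 from 1584, 634, 459 and 1522 fragments. With 27.2% shared sequence, its level is less certain. The other 17 genes that changed at least 2-fold in opposite directions were lower in level or not protein-coding.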

How the results depend on the processing

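No paired analysis was possible because each condition has 1 library and the labels carry no replicate numbers, and no library could be left out. No alternative turned the direction of any of the 102 named genes, but their sizes moved with the pseudocount. At 5 FPKM 39 were smaller by over 1.5 times, among them Slfn2 (-3.12 to -1.89), Adm (-2.60 to -1.19), Gpnmb (-1.79 to -0.80), Il33 (-1.59 to -0.54) and Itga8 (-1.56 to -0.90), and at 0.1 FPKM 11 moved as far. With a pseudocount of 0.1 there were 2069 members (1325 lower and 744 higher in HM), 496 with the untreated gap alone, 763 with the treated gap alone, 296 with both, 747 responding in HM only and 540 in LM only. With a pseudocount of 5 these counts were 276 (194 and 82), 65, 78, 15, 70 and 98, and the members among interferon-stimulated, lysosomal and immediate early genes were 20, 9 and 5. A minimum of 5 FPKM left 653 members, 186 of them higher in HM, 141 and 217 with the untreated or treated gap alone, and 202 and 190 responding in HM or LM only. Protein-coding genes alone gave 720 members, 194 of them higher in HM, with 160, 249 and 43 in the 3 gap classes and 246 and 195 by response. A limit of 1.5-fold gave 3316 members (2078 and 1238), then 858, 1250, 364, 1206 and 885, and a limit of 4-fold gave 109 (59 and 50), then 17, 20, 2, 24 and 27. At least 50 fragments in the highest library left 216 members higher in HM, 169 with the untreated gap alone, 45 with both gaps, 253 responding in HM only and 213 in LM only. Fewer genes tested accounts for the lower counts under the filters by construction. A larger pseudocount makes the log2 response of every gene smaller in size by construction, most at low levels, and a smaller one makes it larger. The difference between the responses need not follow for each gene, as for Stmn4, whose difference was smaller with 0.1 FPKM added. The share of members lower in HM was 60.5%, and 53.7% after median-ratio scaling, 73.1% for protein-coding genes and 71.5% from 5 FPKM. Median-ratio scaling moved the median difference of all genes by 0.07 and left 15 HIF target members in place of 19. Depth limits the 368 members under 50 fragments. Without members that share sequence 910 remained, and 926 lay beyond counting error.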
